A study of Mus musculus with 72 samples.

Results

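The 9 genes by which microglia are followed here, P2ry12, Cx3cr1, Csf1r, Fcrls, Trem2, Siglech, Tmem119, Ctss and Aif1, were measured in whole mouse brain from mid-gestation to adulthood, with whole liver as the reference tissue. All probe sets whose only gene symbol in the array's annotation was one of these names were taken, which gave 13 of 45037 probe sets and 9 of 18193 genes with a symbol of their own. Csf1r had 3 probe sets, Cx3cr1 and Trem2 had 2 each, and every other gene had 1. The animals, all male, were of the inbred strains C57BL/6J, called B6 below, DBA/2J, called D2, and 129S2. Their stages were E14.5 in the embryo, P1 and P7 after birth, and P90, at which adults were 11 to 14 weeks old. No group carried a transgene or received a treatment. Adults had been purchased, the younger animals were offspring of purchased mice, and embryos and newborns had been sexed by a molecular test. Each of the 12 brain and 12 liver groups had 3 arrays, and so few arrays limit how precise a value can be. The labels do not say whether the arrays of a group are separate animals, so p-values measure the spread between arrays only.

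Microglia are the resident macrophages of the brain. They descend from yolk sac progenitors that enter the neural tube in the embryo, multiply there and maintain themselves afterwards, and they depend on the receptor CSF1R and on its ligands IL-34 and CSF-1. Their mature state, marked by P2RY12 and TMEM119, needs TGF-beta signalling and develops after birth, whereas cathepsin S, AIF1 and CSF1R are also made by other macrophages, among them the Kupffer cells of the liver.

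The transcription factor PU.1, encoded by Spi1, is needed for microglia to form and binds purine-rich ETS-type sites. The 3 promoters printed here belong to the members with the most calls between strains in brain. They are taken from RefSeq for assembly GRCm38.p6, which is the C57BL/6J reference; D2 and 129S2 sequence was not used here. An entry was matched for 7 of the 9 genes. The ETS-type core AGGAAG and its reverse complement CTTCCT were searched on both strands in the 250 bases before each gene's start, and capitals mark the matches shown. The P2ry12 stretch, chr3:59262986-59263235 on the minus strand, held 1 match that began 52 bases before the start. The Fcrls stretch, chr3:87263581-87263610 on the minus strand, is a window of 30 bases around 1 of the 4 matches of that promoter. The Ctss stretch, chr3:95526536-95526785 on the plus strand, held no match.
P2ry12: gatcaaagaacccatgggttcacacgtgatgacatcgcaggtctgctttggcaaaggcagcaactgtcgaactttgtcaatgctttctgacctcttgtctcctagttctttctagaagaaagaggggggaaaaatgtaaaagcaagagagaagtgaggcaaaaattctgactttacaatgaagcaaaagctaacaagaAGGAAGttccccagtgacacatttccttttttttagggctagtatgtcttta
Fcrls: acaactttgccaCTTCCTttttttcctatt
Ctss: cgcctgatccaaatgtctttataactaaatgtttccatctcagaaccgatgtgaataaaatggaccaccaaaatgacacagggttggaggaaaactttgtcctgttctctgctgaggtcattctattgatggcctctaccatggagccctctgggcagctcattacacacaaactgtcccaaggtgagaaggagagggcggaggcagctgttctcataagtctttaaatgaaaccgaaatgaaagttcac
Besides P2ry12 and Fcrls, Trem2 held a match, at 41 bases before its start. That makes 3 of 7 members (42.9%), against 9686 of 32851 promoters of all genes (29.5%). A match describes the letters only.

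The deposited log2 signals had been normalized apart in 8 sets of 9 arrays, 1 set for each tissue and stage. Brain array medians lay at 7.12 to 7.30 from E14.5 to P7 and at 6.41 to 6.44 at P90, so strains were tested within a stage on the deposited values, while stages and tissues were compared by size after quantile normalization, with no p-value. On 400 strain marker probe sets, 72 of 72 arrays were most like their own strain, with correlations of 0.711 to 0.92 for 71 of them. The remaining array, 129S2 P90 brain replicate 2, reached 0.431. It was the highest of its group for P2ry12 (9.43 against 8.95 and 9.04), Ctss (10.40 against 9.97 and 10.18) and Aif1 (7.28 against 6.56 and 6.60), and the calls at P90 are given without it as well. In B6 E14.5 brain, replicate 2 carried more erythroid signal than replicates 1 and 3 (a mean over 6 marker genes of 9.82 against 8.58 and 8.46) and more of monocytes and neutrophils (7.07 against 6.14 and 6.10 over 11 genes).

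Most microglial genes were higher in adult than in embryonic brain. Between E14.5 and P90, 8 of 13 probe sets were at least 2-fold higher in each of the 3 strains and none was 2-fold lower, where 14.3% of 30858 brain probe sets were higher and 15.8% lower by that rule. The median difference was 1.58 log2 units over the 13 probe sets and -0.149 over all. On the deposited scale, whose adult set lies lower, 5 were higher and 1 lower, with a median of 0.744 against -0.933 over all probe sets. From P7 to P90 the members' median was 0.627 after quantile normalization and -0.0478 as deposited. Over all probe sets those medians were -0.0867 and -0.819. The members' last step thus depends on the scale. In RNA of whole brain, more cells of a type and more RNA per cell cannot be told apart.

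**Figure D1:**
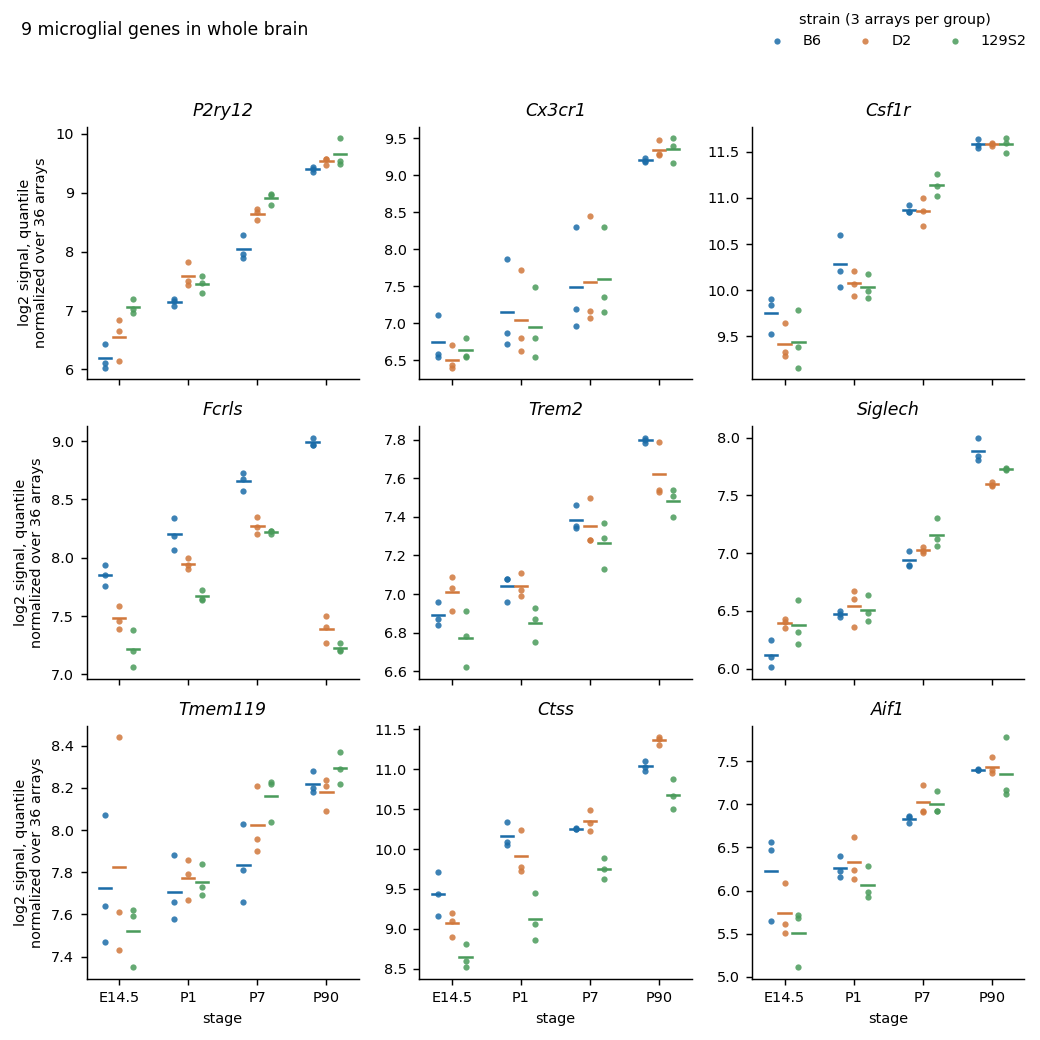
Log2 signal of the 9 genes in whole brain, quantile normalized over 36 arrays, against stage, with 1 point per array, a bar at each group mean of 3 arrays and a colour per strain. P2ry12, Cx3cr1 and Csf1r stand highest at P90 in all 3 strains, while Fcrls parts at P90 into a high B6 group and low D2 and 129S2 groups.

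P2ry12, the receptor by which microglial processes sense ADP and ATP, stood at 6.60 ± 0.44 log2 units at E14.5, 7.39 ± 0.22 at P1, 8.54 ± 0.44 at P7 and 9.53 ± 0.13 at P90 (quantile-normalized means ± SD over 3 strains). It was 7.64-fold higher at P90 than at E14.5, by 2.93 ± 0.31 log2 units. Each step, 0.80 ± 0.36 to P1, 1.14 ± 0.29 to P7 and 1.00 ± 0.32 to P90, was upward in 3 of 3 strains. The levels thus rank in the order of age, and each step is larger than the sum of the SDs at its ends.

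Cx3cr1, the receptor for the neuronal chemokine fractalkine, was higher mainly in adults. Its brighter probe set, 1450020_at, stood at 6.63 ± 0.12, 7.05 ± 0.11, 7.55 ± 0.06 and 9.30 ± 0.09 log2 units at the 4 stages. From P7 to P90 the difference was 2.37 ± 0.08 for the other, 1450019_at, and 1.75 ± 0.03 for 1450020_at. They were the 2 member probe sets at least 2-fold higher in each strain over that step, where 8.5% of all were higher and 9.54% lower. From E14.5 to P1 and from P1 to P7, 0 of 13 members passed 2-fold in each strain, where 3.88% and 1.06% of all probe sets were higher and 3.41% and 0.382% lower.

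At P1 and P7 the brighter Cx3cr1 probe set ran with the replicate number of the arrays. At P7, B6 arrays 1 to 3 read 7.18, 8.47 and 7.38, D2 arrays 7.36, 8.60 and 7.28, and 129S2 arrays 7.34, 8.48 and 7.52 on the deposited scale. At P1 they read 6.84, 7.00 and 7.94 in B6, 6.93, 6.75 and 7.82 in D2, and 6.69, 6.94 and 7.60 in 129S2. So replicate 2 was the highest at P7 and replicate 3 at P1, in all 3 strains. At P7, 302 of 30858 brain probe sets were at least 2-fold higher in replicate 2 than in both other numbers in each strain, and at P1 105 were so in replicate 3; at E14.5 and P90 there were none for any number. What the arrays of 1 number shared is not given in the labels and was not tested. With the replicate number as a block, the standard error of a Cx3cr1 strain difference went from 0.351 to 0.125, and it was not called in either fit.

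**Figure D2:**
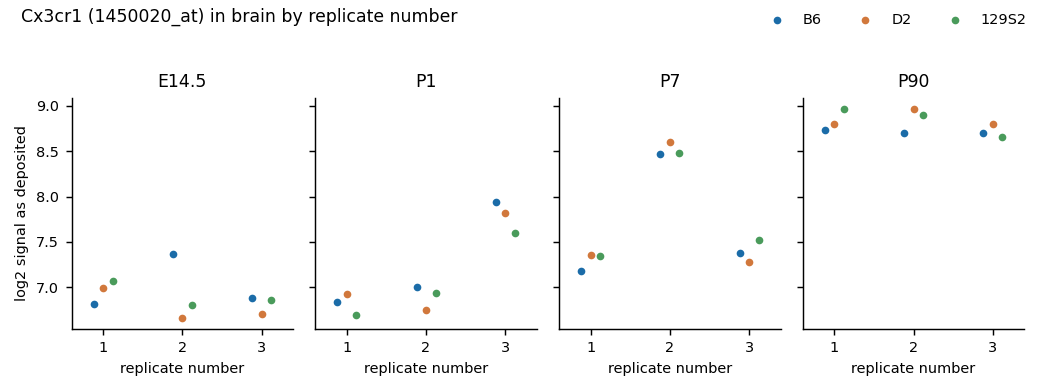
Deposited log2 signal of Cx3cr1 probe set 1450020_at in brain against the replicate number of the labels, 1 panel per stage and 1 point per array, coloured by strain. At P7 the 3 arrays numbered 2 lie at 8.47 to 8.60, above the other 6, and at P1 the 3 arrays numbered 3 lie at 7.60 to 7.94.

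Csf1r, the receptor tyrosine kinase that microglia need to survive, was higher at each later stage after quantile normalization. Its brightest probe set, 1419872_at, stood at 9.54 ± 0.19, 10.13 ± 0.13, 10.95 ± 0.16 and 11.58 ± 0.0021 log2 units, a P90 to E14.5 difference of 2.04 ± 0.18 (4.12-fold). Probe set 1423593_a_at differed by 2.02 ± 0.12, and 1419873_s_at by 0.92 ± 0.12, which left it short of 2-fold. The 3 probe sets thus shared the direction and not the size. Of its ligands, Il34, which neurons make, was 3.14 ± 0.14 higher at P90 than at E14.5, while Csf1 differed by 0.54 ± 0.08.

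Trem2, a lipid-sensing receptor that signals through the adaptor encoded by Tyrobp, gave opposite readings from its 2 probe sets. Probe set 1421792_s_at was 0.74 ± 0.15 log2 units higher at P90 than at E14.5, while the difference for 1421226_at was -0.71 ± 0.08. Over the 12 brain group means, 1421226_at ran with a correlation of -0.974 to Cx3cr1, a description over means that share their arrays. No direction is therefore given for Trem2. Tyrobp itself was 1.33 ± 0.22 higher at P90.

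Siglech, a sialic acid-binding lectin of microglia and plasmacytoid dendritic cells, went from 6.30 ± 0.15 at E14.5 through 6.51 ± 0.04 and 7.04 ± 0.11 to 7.74 ± 0.14 at P90, a difference of 1.44 ± 0.29. Tmem119, a membrane protein used to tell mature microglia from other macrophages, differed little, with 7.69 ± 0.16, 7.74 ± 0.03, 8.01 ± 0.17 and 8.23 ± 0.06 at the 4 stages. Its E14.5 and P1 levels did not differ beyond their spread. As deposited, its P90 minus E14.5 difference was -0.19, so its direction depends on the scale.

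Ctss, the lysosomal protease cathepsin S, was 1.98 ± 0.35 log2 units higher at P90 than at E14.5 (3.94-fold), at 11.03 ± 0.34 against 9.05 ± 0.40. Aif1, which encodes the calcium-binding protein IBA1, was 1.58 ± 0.35 higher (2.99-fold), at 7.40 ± 0.04 against 5.82 ± 0.37. After quantile normalization, both stood higher at each stage than at the one before it in the mean over strains. For Ctss the SDs of E14.5 and P1 overlap, as do those of P1 and P7. These SDs are over strains and hold the strain differences given below, so their overlap does not tell whether a strain changed.

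Fcrls, an Fc receptor-like scavenger receptor known as a microglial signature gene, was the member whose course depended on the strain. Its size from E14.5 to P90 was 1.14 log2 units in B6, -0.08 in D2 and 0.01 in 129S2. From P7 to P90 it was 0.33 in B6, against -0.88 in D2 and -0.99 in 129S2. These sizes are after quantile normalization. As deposited, where the adult set lies lower, B6 too was lower at P90 than at P7. D2 and 129S2 were then lower at P90 than at E14.5, while B6 was higher. The direction of these steps within a strain thus depends on the scale. The test of strain by stage on the deposited values (limma, Benjamini-Hochberg) gave an adjusted p of 3.19e-10 with an F of 53.3, and the strain differences were spread over 1.42 log2 units between stages. It was the 1 member of 13 called, where 4.36% of brain probe sets were. Siglech had an adjusted p of 0.0436 with a spread of 0.582, just under the 1.5-fold minimum of 0.585. A scale that differs between the separately normalized stages could change such a test.

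In adult brain, the B6 arrays read 8.47, 8.49 and 8.55 for Fcrls, the D2 arrays 6.87, 6.96 and 6.71, and the 129S2 arrays 6.64, 6.71 and 6.64. No D2 or 129S2 array came near the B6 range. Fcrls was 3.15-fold lower in D2 than in B6 (log2 -1.66, 95% interval -1.81 to -1.50, adjusted p = 1.29e-15) and 3.58-fold lower in 129S2 (-1.84, -1.99 to -1.69, adjusted p = 1.36e-16). Without 129S2 P90 replicate 2 the latter was -1.87 (adjusted p = 3.49e-15).

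At younger stages the same order of Fcrls was narrower. At E14.5 the arrays read 8.15, 8.01 and 8.10 in B6, 7.84, 7.71 and 7.65 in D2, and 7.45, 7.31 and 7.63 in 129S2. The 3 groups did not overlap, and 129S2 was called lower than B6 (-0.63 ± 0.075 SE, 1.54-fold, adjusted p = 9.92e-07), a difference of -0.55 without 129S2 replicate 2, which is under the minimum fold. At P1 the differences to B6 were -0.23 in D2 and -0.50 in 129S2, both under the minimum fold. At P7 the arrays read 8.73, 8.90 and 8.85 in B6, 8.49, 8.42 and 8.36 in D2, and 8.40, 8.42 and 8.38 in 129S2. There B6 lay above both other strains, which overlapped, by less than 1.5-fold (-0.40 and -0.43, adjusted p = 7.48e-04 and 3.68e-04).

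Over all 13 probe sets in brain, 10 of 156 strain comparisons were called (6.41%), with an adjusted p below 0.05 and at least 1.5-fold, where 2.63% were called over all probe sets. They fell on 4 probe sets of 4 genes, Fcrls with 3 calls, Ctss with 4, P2ry12 with 2 and Aif1 with 1. Of all brain probe sets, 11.0% were called at least once in the 12 comparisons. Members and lists had been chosen with earlier results of these data known, so their shares beside those over all probe sets are a description only. By comparison, 129S2 minus B6 held 4 members at E14.5 (3.86% of all probe sets called), and 1 each at P1 (2.13%), P7 (2.07%) and P90 (2.28%). D2 minus B6 held 1 at P90 (2.84%), and none at E14.5 (5.19%), P1 (2.11%) or P7 (2.16%). For 129S2 minus D2 there was 1 at P1 (2.26%) and 1 at P90 (2.14%), and none at E14.5 (2.64%) or P7 (1.94%). The groups did not overlap in 47 of the 156 (30.1%), where it was 20.2% over all probe sets.

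**Figure D3:**
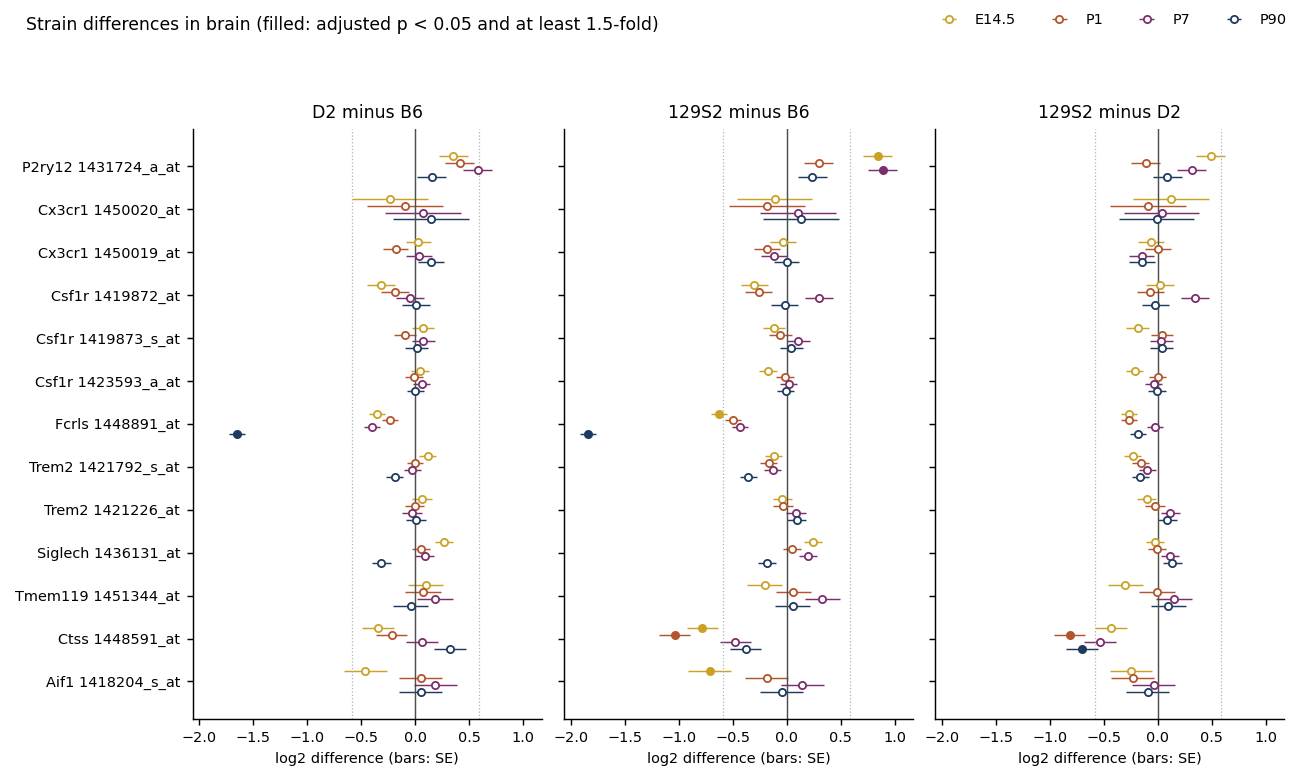
Log2 difference between strains in brain for the 13 probe sets, 1 panel per pair of strains and 1 colour per stage, with bars for the SE of the fit and dotted lines at 1.5-fold. Filled points are the 10 called differences, and those of Fcrls at P90 (-1.66 and -1.84) lie farthest from 0.

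The 4 Ctss calls in brain were all lower in 129S2, against B6 and D2 at P1, B6 at E14.5 and D2 at P90. Ctss was not called for 129S2 minus B6 at P7 (-0.47, adjusted p = 0.0669) or P90 (-0.38, adjusted p = 0.169), nor for 129S2 minus D2 at E14.5 (-0.44, adjusted p = 0.0766) or P7 (-0.54, adjusted p = 0.0306, under the minimum fold). At P1 the arrays read 10.21, 10.41 and 10.12 in B6, 10.35, 9.89 and 9.85 in D2, and 9.17, 9.55 and 8.91 in 129S2. All 3 129S2 arrays lay below every array of the other strains, 2.05-fold to B6 (-1.04 ± 0.146, adjusted p = 1.73e-05) and 1.76-fold to D2 (-0.82, adjusted p = 4.45e-04). Fitted on the 9 P1 arrays alone, the difference to D2 had an adjusted p of 0.0642.

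At E14.5 Ctss read 9.91, 9.66 and 9.38 in B6, 9.42, 9.40 and 9.11 in D2, and 8.75, 8.87 and 8.99 in 129S2. The 129S2 arrays again lay below all others, and the difference to B6 was called (-0.78 ± 0.146, 1.72-fold, adjusted p = 5.68e-04). In adults it read 10.55, 10.50 and 10.64 in B6, 10.91, 10.82 and 10.92 in D2, and 9.97, 10.40 and 10.18 in 129S2. Here D2 was the highest strain, and 129S2 lay 1.63-fold below it (-0.70, adjusted p = 2.65e-03), or -0.81 without 129S2 replicate 2 (adjusted p = 0.00118).

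P2ry12 was higher in 129S2 than in B6 at E14.5 and P7. At E14.5 the arrays read 6.70, 6.31 and 6.41 in B6, 6.46, 7.07 and 6.94 in D2, and 7.46, 7.21 and 7.28 in 129S2. The 129S2 arrays lay above all 6 others, and the difference to B6 was 1.79-fold (0.84 ± 0.135, adjusted p = 8.25e-05). At P1 the arrays read 7.29, 7.21 and 7.29 in B6, 7.89, 7.58 and 7.55 in D2, and 7.70, 7.56 and 7.42 in 129S2. Both other strains lay above every B6 array there, but neither 129S2 minus B6 (0.30, adjusted p = 0.321) nor D2 minus B6 (0.41, adjusted p = 0.0998) was called. At P7 they read 8.13, 8.45 and 8.07 in B6, 8.87, 8.82 and 8.69 in D2, and 9.15, 9.01 and 9.16 in 129S2. The 3 strains did not overlap, 129S2 was 1.85-fold above B6 (0.89 ± 0.135, adjusted p = 4.81e-05), and D2 was 0.58 above B6 (adjusted p = 0.00825), just under the minimum fold. That difference was called without B6 replicate 2 or without D2 replicate 3 at P7. At P90 the means were 8.90 ± 0.037 (SD, n = 3) in B6, 9.05 ± 0.049 in D2 and 9.14 ± 0.26 in 129S2, with no call.

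Aif1 was called once, lower in 129S2 than in B6 at E14.5 (-0.71 ± 0.198, 1.64-fold, adjusted p = 0.0198). The arrays read 6.82, 6.75 and 5.95 in B6, 5.94, 6.34 and 5.85 in D2, and 5.97, 5.35 and 6.06 in 129S2. The groups overlapped, since B6 replicate 3 lay within the 129S2 range. The call was lost without 129S2 replicate 2 (-0.49, adjusted p = 0.194), without B6 replicate 1 (adjusted p = 0.0877), without B6 replicate 2 (-0.59, adjusted p = 0.075) and on the 9 arrays of the stage alone (adjusted p = 0.327).

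The other 5 genes, Cx3cr1, Csf1r, Trem2, Siglech and Tmem119, had no call by limma in 108 comparisons over 9 probe sets. Their differences ran from -0.35 to 0.35 log2 units, 15 had an unadjusted p under 0.05, and 3 an adjusted p under 0.05. Those 3 were Siglech in D2 minus B6, at 0.27 at E14.5 and -0.31 at P90, and Trem2 1421792_s_at in 129S2 minus B6 at P90 (-0.35). A difference that missed the threshold does not show that the strains were alike.

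**Figure D4:**
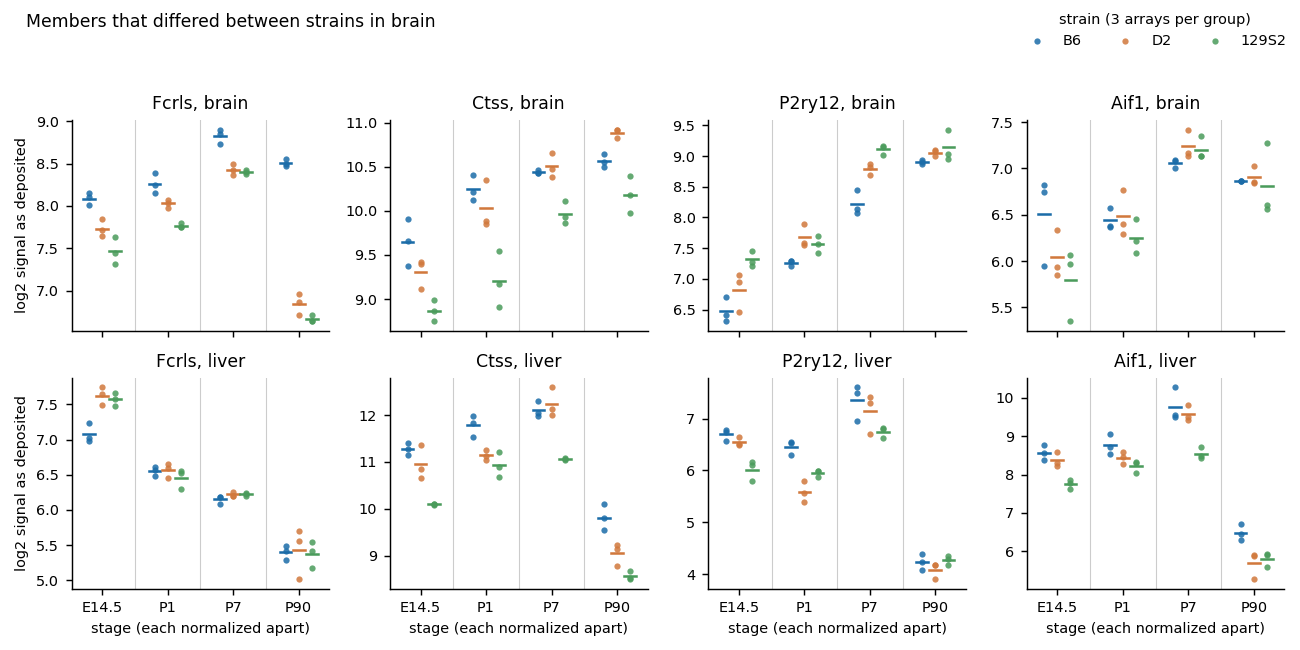
Deposited log2 signal of Fcrls, Ctss, P2ry12 and Aif1 against stage in brain (top) and liver (bottom), with 1 point per array, a bar at each group mean of 3 arrays and a colour per strain. Grey lines part the stages, which had been normalized separately. Fcrls at P90 shows B6 at 8.47 to 8.55 in brain against 6.64 to 6.96 in the other strains. In P90 liver its strains overlap, at values near the array medians (5.03 to 5.08).

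Marker genes of other cells were read beside these calls. In adult brain their mean signals differed little between strains, at 5.65, 5.65 and 5.63 for border macrophages (11 genes; B6, D2, 129S2), 5.29, 5.31 and 5.31 for Kupffer cells (11 genes), and 5.14, 5.14 and 5.09 for monocytes and neutrophils (11 genes). At E14.5 they were 7.17, 7.36 and 7.17 for border macrophages, 6.81, 6.72 and 6.71 for Kupffer cells and 6.44, 6.21 and 6.09 for monocytes and neutrophils. The adult means lay below the array medians of 6.41 to 6.44. At E14.5 those of Kupffer cells and of monocytes and neutrophils lay below 7.26 to 7.30. Much of such signal can be background, so like means do not show that these cells were alike between strains. Erythroid signal at E14.5 ran over arrays from 8.46 to 9.82 in B6, 8.98 to 9.58 in D2 and 8.66 to 8.87 in 129S2. Their part in the E14.5 calls was not tested. Without B6 E14.5 replicate 2, P2ry12, Ctss and Fcrls in 129S2 minus B6 at E14.5 were 0.76, -0.78 and -0.67, all still called. Aif1 in that comparison was -0.59 and lost its call.

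The ligands, signal partners and regulators of these receptors were read in the same way. Of 12 ligands and partners, all tested in brain, Apoe was called, lower in 129S2 at E14.5 (-1.44 to B6, adjusted p = 5.85e-09, and -1.18 to D2, adjusted p = 2.61e-07), which made 2 of 144 comparisons (1.39%, against 2.63% over all brain probe sets). Apoe encodes a lipid carrier that TREM2 binds. Of the regulators, 9 of 10 were tested and Egr1, an early response transcription factor, was higher at E14.5 in D2 and 129S2 than in B6 (0.65 and 0.69, adjusted p = 0.00974 and 0.00868), 2 of 108 comparisons (1.85%, likewise below 2.63%). Il34, Csf1, Cx3cl1, Tgfb1, Tyrobp, Spi1, Irf8 and Sall1 had no call. Between E14.5 and P90, 4 of the 12 ligands and partners were 2-fold higher and 1 lower, and 2 of 9 regulators higher and 1 lower, against 14.3% higher and 15.8% lower over all brain probe sets. Cx3cl1, which encodes the ligand of CX3CR1, was 4.2 ± 0.05 higher, Apoe 4.61 ± 0.79 higher, and Tgfbr1, a TGF-beta receptor chain, differed by -2.43 ± 0.12. Among the regulators, Mef2c and Egr1 were 3.37 and 4.41 higher, Sall1 differed by -1.66, and Spi1 and Irf8 differed by 0.79 and 0.76, short of 2-fold. These genes are also made by neurons and other brain cells to differing extents.

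A further list of 29 genes expressed by microglia had 23 tested in brain, each gene by 1 probe set, as in the lists that follow. Of 276 comparisons 26 were called (9.42%, against 2.63% over all brain probe sets), 2 higher and 24 lower in the strain named first, on 8 genes, where 11.0% of all brain probe sets were called at least once. Over all brain probe sets, lower calls also outnumbered higher ones in each comparison with B6, as in 129S2 minus B6 at P90 (1.44% lower, 0.843% higher). In 129S2 minus D2 they did so at P1 and P90, and not at E14.5 or P7. Ly86, a partner of a toll-like receptor homologue, was called lower in 129S2 than in D2 at each of the 4 stages. Against B6 it was called lower in 129S2 at E14.5, P1 and P90, and not at P7. Examples by limma are E14.5 (-1.25 to B6, adjusted p = 2.52e-05) and P90 (-1.02 to D2, adjusted p = 5.32e-04). Ptprc, the leukocyte antigen CD45, was lower at E14.5 in D2 (-0.63) and 129S2 (-1.13) than in B6. The complement genes C1qb and C1qc were lower in adult D2 (-0.87 and -0.85) and 129S2 (-0.93 and -0.83) than in B6, and C1qa in adult 129S2 (-0.65). Gpr34, a microglial lysophospholipid receptor, was higher in 129S2 than in B6 at P7 (0.89, adjusted p = 0.0331), as P2ry12 was. Between E14.5 and P90, 9 of the 23 were 2-fold higher and 2 lower (14.3% and 15.8% of all brain probe sets), with Gpr34 (3.22 ± 0.08), C1qa (2.04 ± 0.13) and Gas6 (2.03 ± 0.16) the largest increases; their median was 1.06, or 0.29 as deposited.

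Of 16 genes of neonatal and phagocytic microglia, 13 were tested, and Lpl, lipoprotein lipase, was called, higher at P90 in D2 (1.18) and 129S2 (1.12) than in B6, 2 of 156 comparisons (1.28%, where 2.63% were called over all brain probe sets). Among border macrophage genes 2 of 9 tested were called, Lyve1 and Dab2, both higher in D2 than in B6 at E14.5 (0.70 and 0.63), 2 of 108 comparisons (1.85%). Among Kupffer genes 2 of 7 were, Clec1b (0.64) and Adgre1 (-0.67 in D2 and -0.71 in 129S2 against B6), all at E14.5, 3 of 84 comparisons (3.57%). Of 5 erythroid genes 3 were called, all at E14.5, with the embryonic globins Hba-x (1.74 and 1.44) and Hbb-y (1.04 and 0.81) higher in D2 and 129S2 than in B6. The third was Alas2, which encodes the erythroid enzyme of haem synthesis, lower in 129S2 than in B6 (-0.88, adjusted p = 0.00462), and these made 5 of 60 comparisons (8.33%). Of 14 genes of other brain cells, Aqp4 and Mog were called, in 3 of 168 comparisons (1.79%). Monocyte and neutrophil genes (8 tested) and lymphocyte genes (3 tested) had no call by limma, with 3 of 96 and 4 of 36 comparisons at an unadjusted p under 0.05. Between E14.5 and P90 4 of 9 border macrophage genes were 2-fold lower and 1 higher, among them Lyve1 (-2.87) and Pf4 (-1.97). Of the Kupffer genes 2 of 7, and of the erythroid genes 4 of 5, were lower, and none higher, where 15.8% of all brain probe sets were lower and 14.3% higher.

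In liver, 11 of the 13 probe sets passed the filter, and 22 of 132 comparisons were called (16.7%), where 5.72% were called over all liver probe sets and 28.2% of them at least once. They fell on Ctss, Aif1, P2ry12 and Csf1r, and all 22 were lower in D2 or 129S2 than in the strain they were compared with. Over all liver probe sets, lower calls also outnumbered higher ones in each comparison with B6, as in 129S2 minus B6 at P7 (2.74% lower, 2.08% higher). In 129S2 minus D2 higher calls outnumbered lower ones at E14.5, P1 and P7 (at P7 3.3% higher, 2.75% lower). Marker genes of other liver myeloid cells were also mostly called lower. Of 132 comparisons of Kupffer cell genes 46 were called (34.8%), 39 of them lower in the strain named first, and of 132 of monocytes and neutrophils 48 were (36.4%), 41 of them lower. In 129S2 minus B6, 8 of 11 Kupffer genes were called lower at P90 and 9 of 11 monocyte and neutrophil genes at P7. The mean signal over the 11 Kupffer genes ran over arrays from 8.61 to 8.66 in B6, 8.19 to 8.41 in D2 and 8.18 to 8.24 in 129S2 at E14.5, and from 8.56 to 9.03, 8.05 to 8.20 and 8.23 to 8.28 at P90. Over 11 monocyte and neutrophil genes it ran from 10.54 to 10.69, 8.62 to 9.72 and 9.70 to 9.91 at E14.5, and from 11.48 to 11.78, 10.53 to 10.85 and 10.41 to 10.62 at P7. At the stages given for each list the B6 arrays lay above all others. They also did for Kupffer genes at P1 and, narrowly, for monocyte and neutrophil genes at P90. For Kupffer genes at P7, B6 (10.37 to 10.51) overlapped D2 (10.04 to 10.38). For monocyte and neutrophil genes at P1, B6 was not the highest, with means of 11.91 in B6, 12.05 in D2 and 11.92 in 129S2. The part of these cells in the liver calls of Ctss, Aif1, P2ry12 and Csf1r was not tested.

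Ctss read 11.41, 11.15 and 11.27 in B6, 11.36, 10.65 and 10.84 in D2, and 10.08, 10.11 and 10.11 in 129S2 at E14.5 in liver. The 129S2 arrays lay below all others there, and Ctss was lower in 129S2 than in B6 at all 4 stages (-1.18, -0.86, -1.05 and -1.25 in order of age; adjusted p = 1.14e-05, 8.72e-04, 6.28e-05 and 2.13e-06). In that pair of strains 3.98, 3.99, 4.82 and 7.11% of liver probe sets were called at the 4 stages. Ctss was thus lower in 129S2 than in B6 in both tissues at E14.5 and P1.

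In 129S2 minus B6, P2ry12 went opposite ways in the 2 tissues at E14.5, P1 and P7, but not at P90 (0.24 in brain and 0.04 in liver). In E14.5 liver it read 6.74, 6.77 and 6.57 in B6 and 6.16, 6.10 and 5.79 in 129S2, which was -0.68 (adjusted p = 0.00368), against 0.84 in brain. These liver signals lay near or below the array medians of 6.73 to 6.76. A test of brain minus liver differences, added after the data had been seen, gave 1.52 at E14.5 and 1.5 at P7 for 129S2 minus B6. Fcrls in adult liver read 5.42, 5.49 and 5.29 in B6, 5.56, 5.02 and 5.70 in D2, and 5.18, 5.54 and 5.42 in 129S2. These groups overlap, and the brain minus liver test gave -1.68 for D2 and -1.82 for 129S2 against B6. In E14.5 liver, Fcrls was lower in B6 (6.98, 7.02 and 7.23) than in D2 (7.74, 7.49 and 7.64) or 129S2 (7.66, 7.48 and 7.58), the reverse of brain, with differences under the 1.5-fold minimum. In that test 19 of 156 comparisons were called (12.2%), on 7 probe sets of 5 genes, where 4.45% were over all probe sets.

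Liver, whose Kupffer cells share several of these genes, was the reference tissue. At E14.5, 0 of 13 probe sets were at least 2-fold higher in brain in each strain and 5 were lower (16.4% and 13.7% of all). At P1 the counts were 0 and 5 (18.5% and 15.5%), at P7 2 and 5 (19.3% and 16.4%), and at P90 3 and 1 (21.2% and 17.7%). On the deposited scale 7 were higher and none lower at P90. Aif1 differed by -2.65 ± 0.19 log2 units at E14.5, -2.77 ± 0.21 at P1 and -3.02 ± 0.71 at P7 (brain minus liver, mean ± SD over 3 strains), and Ctss by -1.93 ± 0.21, -2.02 ± 0.28 and -2.08 ± 0.25. All 3 Csf1r probe sets were 2-fold lower in brain at E14.5 and P1. Adult brain exceeded liver for P2ry12 by 3.43 ± 0.20 (10.8-fold) and for the Cx3cr1 probe sets by 2.92 ± 0.06 and 2.82 ± 0.09. Tmem119 differed by -0.09 ± 0.05 at P90 and Siglech by -0.12 ± 0.19, so these probe sets did not set adult brain apart from liver on this scale.

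**Figure D5:**
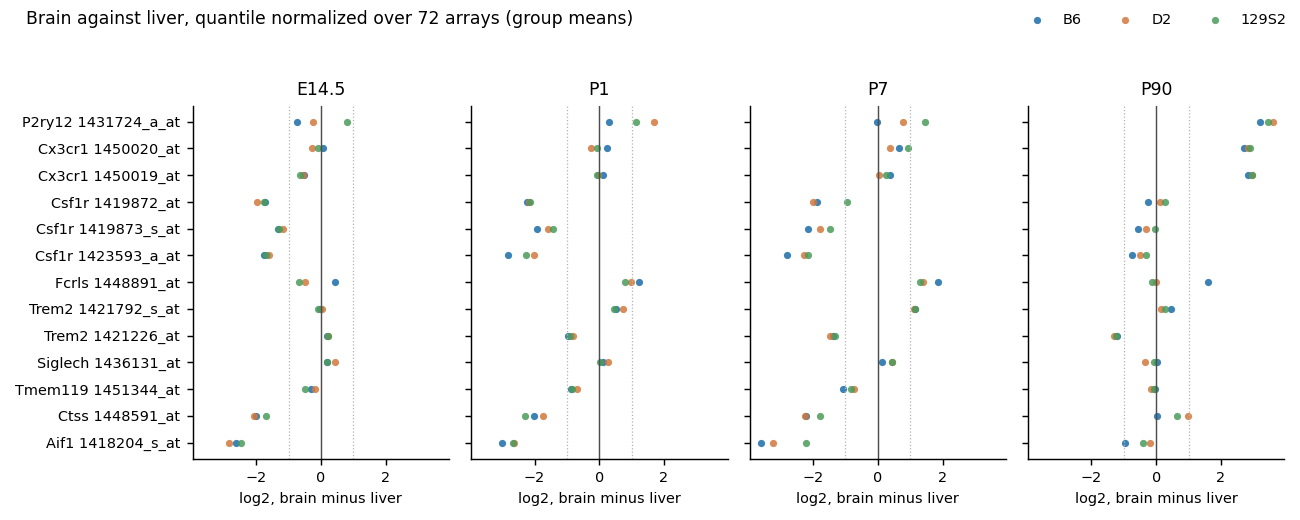
Log2 difference between brain and liver of each strain's group means (quantile normalized over 72 arrays) for the 13 probe sets, 1 panel per stage, with dotted lines at 2-fold. P2ry12 and both Cx3cr1 probe sets lie beyond 2-fold above 0 in all strains at P90, while Aif1, Ctss and Csf1r points lie below 0 up to P7; Fcrls at P90 is beyond 2-fold in B6 (1.60) and near 0 in the other strains.

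Over the 12 brain group means the members' highest probe sets ran with their mean profile at correlations of 0.916 to 0.983, except Fcrls with 0.403. Each is itself part of that mean, which raises its correlation. Trem2 entered by 1421792_s_at, to which its other probe set ran at -0.908. Among 13407 genes the profiles most like that mean were those of Gcnt2 (0.993), Fem1a (0.991), Wipf3 (0.99), Chgb (0.99), Pex5l (0.989), Ppargc1b (0.989), Desi1 (0.988), Ankrd63 (0.988), Dcaf12l1 (0.987) and Arhgap15 (0.987). Closest to P2ry12 were Asrgl1 (0.987) and Ndufs8 (0.986), to Cx3cr1 Lmbrd1 (0.998) and Evi2a (0.998), and to Fcrls Gpatch1 (0.871) and Hfe (0.87). The points share arrays and the course with age, so these values are a description only.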

How the data were processed

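RNA of whole brain and whole liver, extracted with TRIzol and RNeasy and labelled after 1 round of cDNA synthesis per the labels' protocols, was measured on 72 Affymetrix arrays. The authors deposited log2 signals of 45101 probe sets made with RMA, per the submitters' processing notes; the RMA version is not given in the sources used here. Arrays of a tissue and stage shared 2.96 to 5.03% of their exact values in pairs and other pairs at most 0.0108%, so 8 sets of 9 had been normalized apart. Without 64 controls, 34945 probe sets carried 1 symbol in the platform annotation, 932 several and 9160 none. Probe sets entered when their highest group mean of the tissue exceeded 6.66, the median of all values (30858 in brain, 26434 in liver, 32921 in either).

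Strains were contrasted within a stage in limma 3.58.1 (R 4.3.3; group means of 36 arrays, eBayes, two-sided, Benjamini-Hochberg over all probe sets of a comparison) and called at an adjusted p below 0.05 and 1.5-fold. Stages and tissues were quantile normalized (36 or 72 arrays; Python 3.11.15, numpy 2.4.6) and counted at 2-fold in each of 3 strains. On simulated data with folds of 1.5, 2, 3 and 4 in P90 brain (129S2 minus B6, 30858 probe sets), 50, 100, 98 and 100% were called, and 3 of 30658 unchanged ones. All probe sets of the 9 genes are accounted for, the brightest in brain first. Other genes were named per list: up to 4 with the largest difference among those called or counted, and the ligands, partners and regulators Il34, Csf1, Cx3cl1, Tgfb1, Tyrobp, Spi1, Irf8 and Sall1. C1qa and C1qc are named between strains beside C1qb, a choice made after their values were seen. By likeness, the 10 genes nearest the mean profile and up to 2 per member were named. Members and lists were chosen with earlier results of these data known. Alternatives were other filters, normalizations and variance models, fewer arrays, no minimum fold, a replicate block and each array left out. Same-numbered arrays deviated together in 9 of 9 pairs in P7 brain and E14.5 liver (lowest correlations 0.1 and 0.19), and not in all pairs elsewhere.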

Additional observations from a re-analysis of the deposited data

Results flagged for a closer look

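Fcrls had a strain difference that varied with stage in brain, with a spread of 1.42 log2 units between stages. In liver the same test passed for Aif1 (1.16), P2ry12 (0.895), Ctss (0.964) and Fcrls (0.588), where 29.0% of all liver probe sets passed.

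The other results concern strain differences that were unlike in brain and liver, each given as the brain difference minus the liver difference in log2 units and past the test of that difference. For Fcrls these were -0.91 (D2 minus B6) and -1.12 (129S2 minus B6) at E14.5, and -1.68 and -1.82 at P90. Its P90 liver values lay near the array medians (5.03 to 5.08), where a strain difference could hardly show. For P2ry12 they were 1.52 (129S2 minus B6) and 1.02 (129S2 minus D2) at E14.5, 1.28 (D2 minus B6) and 0.80 (129S2 minus B6) at P1, and 0.79 (D2 minus B6), 1.5 (129S2 minus B6) and 0.71 (129S2 minus D2) at P7.

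Ctss differed by 1.08 (D2 minus B6) and 0.88 (129S2 minus B6) at P90, and Aif1 by 1.37 (129S2 minus B6) and 0.99 (129S2 minus D2) at P7. Csf1r differed by 0.86 at P1 (1423593_a_at, D2 minus B6), and at P7 by 0.91 and 1.10 (1419872_at, 129S2 minus B6 and minus D2) and 0.71 (1419873_s_at, 129S2 minus B6). The tissues had been normalized apart, and the labels do not say whether brain and liver came from the same animals; the part of either in these results was not tested.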

How the results depend on the processing

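The 10 calls between strains in brain became 22 without the minimum fold, and 8 to 12 under the other alternatives or with 1 array left out. With the replicate block they stayed at 10; in liver the block gave 22 against 22, losing Aif1 in 129S2 minus D2 at E14.5 (adjusted p 0.0440 to 0.0884) and gaining Csf1r 1419872_at in 129S2 minus B6 at P7 (0.0632 to 0.0349). The block changed no other call of a member. The liver count ran from 19 to 29, and from 19 to 25 with 1 array left out. Of the values of the 10 brain calls, 87 of 89 under alternatives and 356 of 360 with an array left out kept their direction and their call. In liver 185 of 195 and 760 of 792 did, and none reversed. Most arrays left out belonged to neither group of a comparison. Their removal left its difference unchanged and could alter only its SE and p, so most of these values were nearly fixed beforehand. The 4 brain values that lost their call were without an array of the groups compared.

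The count of members whose strain difference varied with stage in brain went from 1 (Fcrls) to 2 with arrays centred on their median or with no minimum fold (Siglech added), to 6 with array weights, and to 1 to 3 with an array left out. P2ry12 passed without 129S2 P90 replicate 2 (adjusted p 0.0225).

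Taken as deposited, 5 probe sets were 2-fold higher and 1 lower between E14.5 and P90 (8 and 0 after quantile normalization), and 1 was lower between P7 and P90. Brain against liver then gave 1 higher at P1, 3 lower at P7, and 7 higher and 0 lower at P90. With 2-fold asked of the mean of 3 strains, 1 was higher from P1 to P7 and 1 in brain against liver at P1. With 1 array left out, 7 to 8 were higher between E14.5 and P90, and 5 to 6 lower in P7 brain than liver; the other size counts stayed at their values. True differences of 1.5-fold, the minimum fold of a call, were called in 50% of simulated cases at 3 arrays a group. That minimum largely sets this share, so it does not measure what 3 arrays can detect.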
